A study of Mus musculus with 2 samples.

Results

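The genes of nuclear pore proteins and of nuclear transport factors were compared between 2 Affymetrix arrays of mouse splenic antigen-presenting cells (APCs). Members were all genes whose single platform symbol starts with Nup and a digit, or with Xpo, Ipo, Kpna, Kpnb or Tnpo, together with Ran, Rcc1, Ranbp1, Rangap1 and Cse1l. The rule gave 47 of the 18193 genes that have a probe set with a single name. It uses gene names only, but it was chosen with earlier results of these data known. Tpr and Nutf2, also named by the rule, and Nup35 and Nup62cl were not analysed here. The APCs came from spleens of 10-week-old female wild-type C57BL/6 mice. They were kept overnight together with P25 TCR CD4+ T cells, whose T cell receptor recognises the peptide P25, and received either this peptide or medium alone. After enrichment of the APCs, RNA of 3 independent experiments was mixed and hybridised to 1 array per condition. Each array therefore shows an average over whole APC preparations. With a single array on each side, differences between replicates could not be measured and nothing was tested.

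The nuclear pore complex is the channel through which proteins and RNA pass the nuclear envelope. Its outer and inner rings form a scaffold, phenylalanine-glycine (FG) nucleoporins fill the channel, and filaments and a basket extend to the cytoplasm and the nucleus. Importins bind cargo in the cytoplasm and release it when they meet RanGTP in the nucleus, whereas exportins bind cargo together with RanGTP. The GTPase Ran gains GTP through the chromatin-bound exchange factor RCC1 and loses it in the cytoplasm through RANGAP1 and RANBP1, and that gradient sets the direction of transport. Activated lymphocytes and other cells that start to grow make more ribosomes and nuclear proteins, which pass through these pores.

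Marker genes were used to check the label of the cells. B cell markers summed to a signal of 17649.7 with P25, against 24890.3 with medium, and 2 of 7 (Blk and Vpreb3) were at least 2-fold lower. Cd79a, Cd79b, Cd22 and Pax5 were lower within 2-fold, and Ms4a1 was higher within 2-fold (5911 with P25, against 5041 with medium). The summed signal of macrophage and monocyte markers was 457 with P25, against 1230.0 with medium, with C1qa and C1qc on both arrays below the floor of 10.3 (the 40th percentile of the signal) and the 6 other markers at least 2-fold lower. Neutrophil markers summed to 5968 with P25, against 10489 with medium, and 5 of 6 were at least 2-fold lower. Of all measured genes 7.22% were at least 2-fold lower. Dendritic cell markers summed to 223 with P25 and 312 with medium, and 5 were measured, with Xcr1 below the floor. Only Zbtb46 was higher with P25, by at least 2-fold (80.0 with P25, against 14.0 with medium). Sirpa was at least 2-fold lower (68.3 with P25, against 183 with medium). Itgax, Flt3 and Cd209a were also lower, within 2-fold (log2 ratios -0.87, -0.80 and -0.29). T cell markers summed to 120.3 with P25 and 132 with medium. Of these 8 genes Cd3e, Cd3d and Cd4 lay below the floor on both arrays, while 5 were measured at low signals. Cd3g (21.6 with P25, against 11.1 with medium) and Cd8a (37.2 with P25, against 28.9 with medium) were higher, within 2-fold. Trat1 was higher too (13.7 with P25), with medium below the floor. Only Cd28 was at least 2-fold lower, and Cd5 was lower within 2-fold (14.5 with P25, against 26.4 with medium). Natural killer cell markers summed to 33.2 with P25 and 39.4 with medium, and both erythroid markers on the array lay below the floor. The part of these marker differences in the results below was not tested, and in mixed cells a change in cell numbers and a change in RNA per cell cannot be told apart.

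Most pore and transport genes had a higher signal with P25, and none was at least 2-fold lower. Where several probe sets name a gene, the one with the highest log2 signal averaged over both arrays stood for it. The gene was measured when at least 1 array exceeded that floor. Of the 47 genes 46 were measured, and 45 of them were above the floor on both arrays. At least 2-fold higher with P25 were 20 of 46 (43.5%), against 9.43% of all 12897 measured genes. At least 2-fold lower was none, against 7.22% of all measured genes. The log2 ratio of P25 over medium was above 0 in 44 of 46 genes (95.7%), against 51.4% of all measured genes. Their median log2 ratio was 0.77 (1.71-fold), with quartiles at 0.49 and 1.23, and that of all measured genes was 0.02, with quartiles at -0.43 and 0.48. At least 1.5-fold higher were 30 of 46 genes (65.2%), against 20.9% of all measured genes, and at least 4-fold higher were 2 of 46, against 1.36% of all measured genes. These counts and medians describe 2 arrays and were not tested.

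Of all measured genes 53.6% had a geometric mean signal of at least 100, a level that nearly all pore and transport genes reached, so they were also set beside bright genes alone. Of the 44 members that reached it, 19 were at least 2-fold higher (43.2%). Among all 6914 genes of that brightness 10.9% were at least 2-fold higher and 6.25% at least 2-fold lower. The array scale mattered little for the members relative to other genes. Median scaling gave both arrays the same median signal over the probe sets above the floor on at least 1 array. The median log2 ratio of all measured genes then came to 0.15, and 22 members were at least 2-fold higher. All calls then split into 1597 higher and 653 lower (1216 and 931 as deposited). The member median exceeded that of all measured genes by 0.77 on that scale and by 0.75 on the deposited scale, both in log2.

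**Figure D1:**
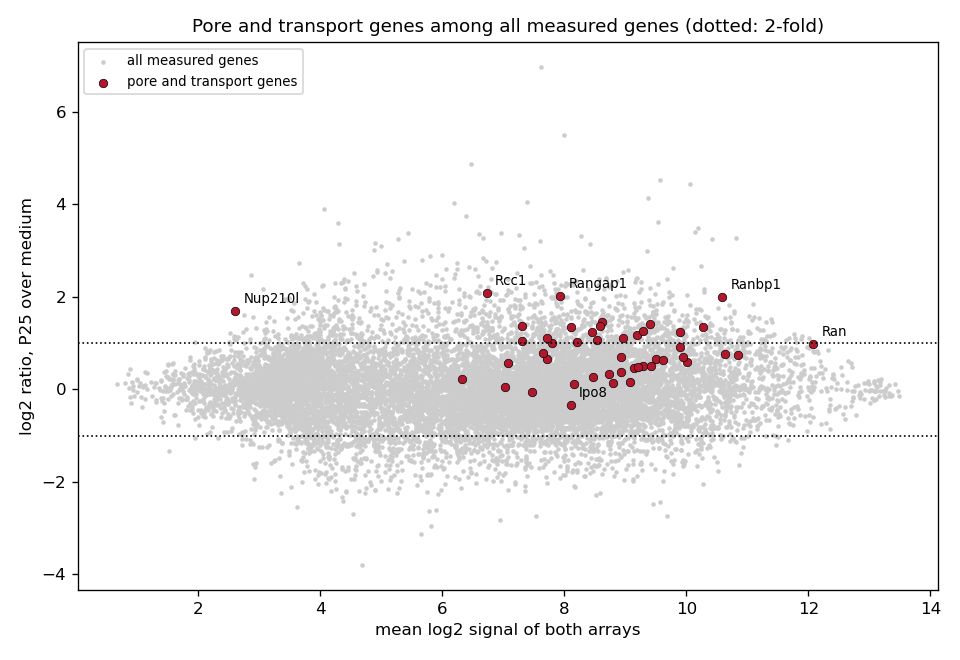
Log2 ratio of P25 over medium (vertical axis) against the mean log2 signal of both arrays (horizontal axis), 1 point per measured gene, with the 46 measured pore and transport genes in red. The red points lie mostly above 0, 20 of them on or above the upper dotted line of 2-fold and none below the lower line.

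**Figure D2:**
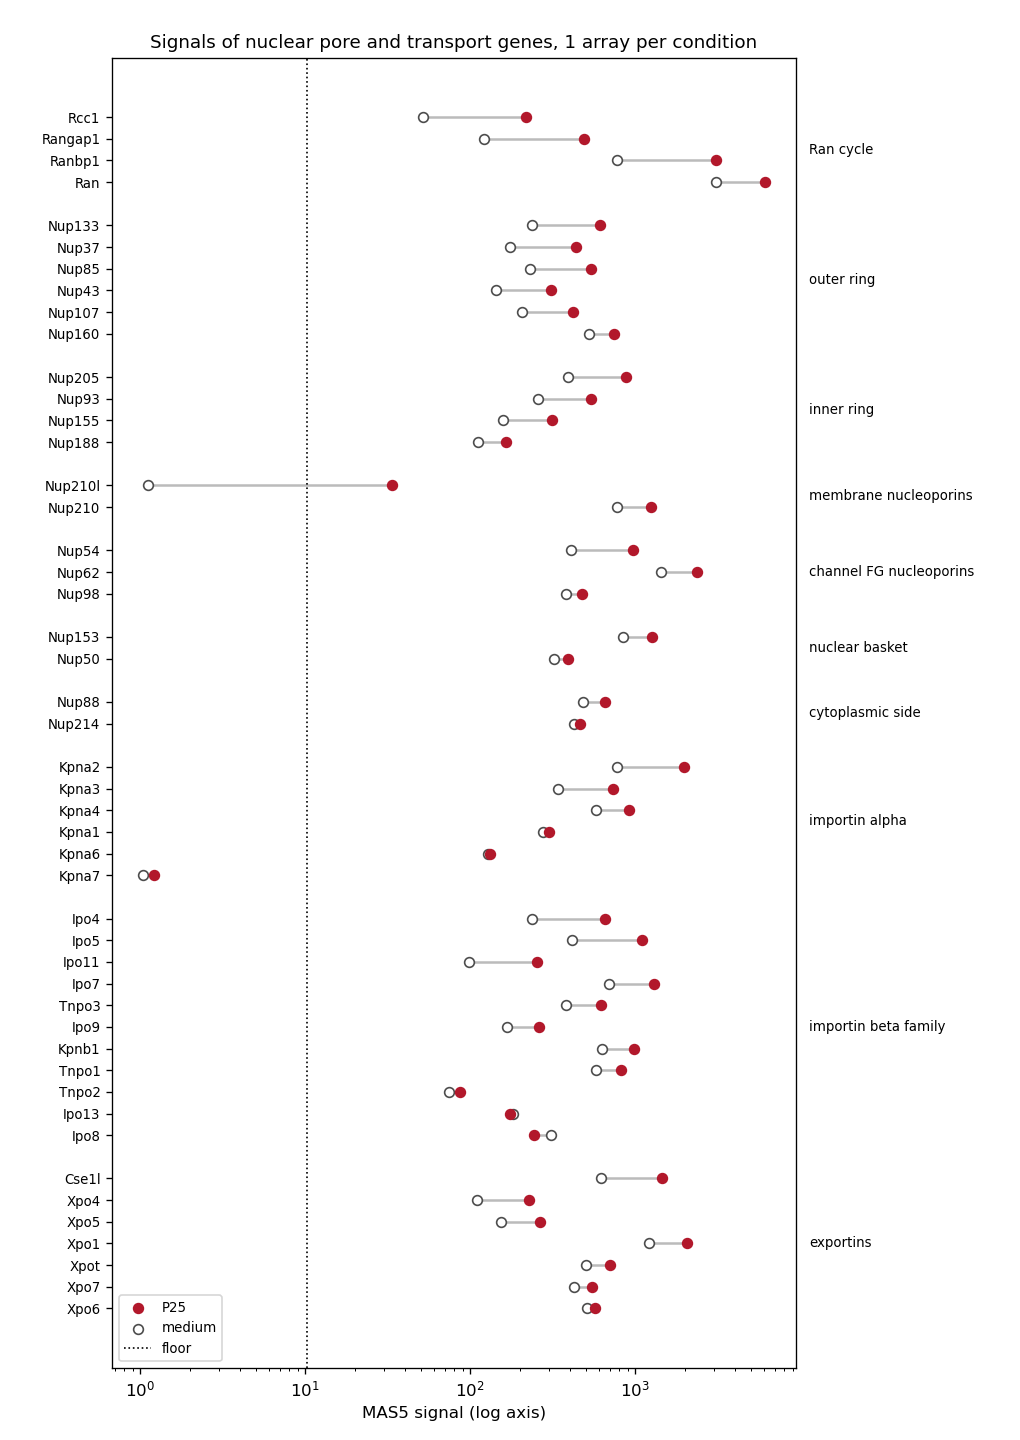
MAS5 signal of each of the 47 genes on the P25 array (red) and the medium array (open circles), on a log axis, ordered by role, with the floor of 10.3 dotted. On the deposited scale the red point lies to the right for all measured genes but Ipo8 and Ipo13, and, with both points right of the floor, the gap is widest for Rcc1, Rangap1 and Ranbp1.

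Of the 45 genes that exceeded the floor with P25 and with medium, Rcc1, Rangap1 and Ranbp1 of the Ran cycle had the highest ratios. Rcc1, the exchange factor that loads Ran with GTP on chromatin, had a signal of 219 with P25, against 51.5 with medium, or 4.24-fold. Rangap1, the activator of Ran's GTPase, had 491 with P25, against 122 with medium, or 4.04-fold. Ranbp1, which helps RANGAP1 to release Ran from transport receptors, had 3079.9 with P25, against 773 with medium, or 3.99-fold. Such ratios were uncommon on these arrays: 1.16% of measured genes had a ratio as high as that of Rcc1 or higher, 1.31% that of Rangap1 and 1.39% that of Ranbp1. Ran itself had a signal of 6082 with P25, against 3095 with medium, or 1.96-fold, just under the threshold. Its probe sets agreed closely. Of the other 5, 4 had ratios between 2.09-fold and 2.30-fold, and a dim one with medium below the floor was at least 1.99-fold higher. Rangap1 differed more between its 3 probe sets: one had a log2 ratio of 0.66 (244 with P25, against 155 with medium), and a dim one with medium below the floor was at least 2.62-fold higher. Rcc1 and Ranbp1 had 1 probe set each. With a floor at the 75th percentile (122), above the medium signal of Rcc1, its log2 ratio was 0.84 and under 2-fold.

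The 250 bases before the annotated start of the 4 Ran cycle genes are shown. These genes were taken because, on the chosen probe sets, 3 of them had the highest ratios among the 45 members above the floor on both arrays. Sequences are those of RefSeq (GRCm38.p6), written 5′ to 3′ on the gene's strand, and capitals mark the E-box CACGTG, a site bound by MYC and related factors, and the words TTCCCGC and TTGGCGC, which resemble sites of E2F factors, on either strand. The windows are chr5:129019906-129020155 on the plus strand for Ran, chr16:18248695-18248944 on the minus strand for Ranbp1, chr4:132345751-132346000 on the minus strand for Rcc1 and chr15:81729920-81730169 on the minus strand for Rangap1.
Ran: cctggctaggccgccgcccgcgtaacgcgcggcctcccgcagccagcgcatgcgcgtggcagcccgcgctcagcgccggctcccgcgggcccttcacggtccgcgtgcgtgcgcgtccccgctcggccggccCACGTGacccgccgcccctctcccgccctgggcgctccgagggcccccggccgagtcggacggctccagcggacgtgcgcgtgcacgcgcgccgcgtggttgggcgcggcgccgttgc
Ranbp1: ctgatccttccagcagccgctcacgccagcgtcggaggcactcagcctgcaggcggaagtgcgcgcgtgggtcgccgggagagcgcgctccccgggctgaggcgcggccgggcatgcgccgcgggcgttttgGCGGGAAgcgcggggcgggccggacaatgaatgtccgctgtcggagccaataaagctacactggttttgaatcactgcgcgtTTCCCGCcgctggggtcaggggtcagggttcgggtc
Rcc1: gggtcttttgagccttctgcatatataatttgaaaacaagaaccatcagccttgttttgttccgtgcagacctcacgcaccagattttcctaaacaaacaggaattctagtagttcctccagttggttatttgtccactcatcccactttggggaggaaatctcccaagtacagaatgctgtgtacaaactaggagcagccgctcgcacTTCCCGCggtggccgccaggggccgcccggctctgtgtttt
Rangap1: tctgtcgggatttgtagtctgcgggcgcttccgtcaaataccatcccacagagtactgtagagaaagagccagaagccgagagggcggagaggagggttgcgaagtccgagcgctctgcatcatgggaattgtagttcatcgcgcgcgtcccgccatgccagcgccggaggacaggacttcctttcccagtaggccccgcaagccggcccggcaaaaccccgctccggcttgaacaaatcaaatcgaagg
The Ran window holds 1 E-box, the Ranbp1 window 2 E2F-type words and the Rcc1 window 1 such word, while the Rangap1 window holds neither. A match of letters is no evidence of binding, and a window without a match says only that these letters are not in it.

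The log2 ratio was positive for all 19 nucleoporins, against 51.4% of all measured genes. With P25, 10 of them were at least 2-fold higher, against 9.43% of all measured genes. The median ratio of all 19 was 2.005-fold. The ring scaffold held most of the higher nucleoporins, with 8 of its 10 genes. None of the 4 genes of the nuclear basket and the cytoplasmic side passed 2-fold. This difference between subcomplexes was not tested, and it depended on the probe set. On their second probe sets Nup133, Nup155 and Nup205 were under 2-fold (log2 ratios 0.93, 0.68 and 0.23). Nup43 and Nup85 stayed above 2-fold on theirs (2.03 and 1.05), and Nup50 of the basket passed it (1.07). In the outer ring, whose Y-shaped complexes coat both faces of the pore, 5 of 6 genes were at least 2-fold higher. Nup133 was highest, with a signal of 615 with P25, against 237 with medium (2.59-fold). Nup37 had 437 with P25, against 173 with medium (2.53-fold), and Nup85 had 539.7 with P25, against 229.98 with medium (2.35-fold). The ratios of Nup43 (308 with P25, 144 with medium) and Nup107 (421 with P25, 206 with medium) were 2.14-fold and 2.04-fold. Nup160 was lowest in the outer ring, with 745 with P25, against 523 with medium (1.42-fold), and its dim second probe set had a log2 ratio of -0.23. Of the other 5 probe sets of Nup133, 4 were above the floor with P25 and with medium and had log2 ratios from 0.26 to 0.93, all under 2-fold. The fifth, dim and below the floor with medium, was at least 1.53-fold higher. Nup43 had a higher ratio, of 4.08-fold, on its other probe set (220.5 with P25, against 54.1 with medium).

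In the inner ring, which anchors the channel to the membrane, 3 of 4 genes were at least 2-fold higher, against 9.43% of all measured genes. Nup205 had a signal of 883 with P25, against 391 with medium (2.25-fold), while its dimmer second probe set was under 2-fold, at 1.17-fold (37.3 with P25, against 31.8 with medium). Nup93, a linker of the inner ring, had 541 with P25, against 257 with medium (2.11-fold). Nup155 stood at the threshold, with 314 with P25, against 157 with medium (2.005-fold), and with 1.60-fold on its other measured probe set. Nup188, a relative of Nup205, was lowest, with 166 with P25, against 111 with medium (1.49-fold). On their chosen probe sets the ring genes thus ranged from 1.42-fold to 2.59-fold, and some of their other probe sets lay outside this range.

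Among the membrane nucleoporins, Nup210 had a signal of 1253 with P25, against 774 with medium (1.62-fold). Its relative Nup210l had 33.4 with P25 and lay below the floor with medium (1.11), so its ratio was at least 3.24-fold. That value rests on a dim probe set, and against the 60th-percentile floor (38.6) Nup210l counted as not measured. Of the FG nucleoporins of the channel, Nup54 had 970.4 with P25, against 408 with medium (2.38-fold), and of its other 3 probe sets above the floor on each array 1 was under 2-fold (1.78-fold). Nup62, its partner in the channel, had 2369.6 with P25, against 1423.5 with medium (1.66-fold). However, 3 other bright probe sets of Nup62 were between 2.05-fold and 2.40-fold, and only a dim one went the other way, with 13.2 with P25, against 23.0 with medium (log2 ratio -0.80). Nup98, an FG nucleoporin that also occurs away from the pore, had 476 with P25, against 379 with medium (1.25-fold).

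None of the genes at the edges of the pore reached 2-fold on its chosen probe set. Nup153, the basket protein that faces the nucleus, had a signal of 1263 with P25, against 843 with medium (1.499-fold). Nup50, which helps to release cargo from importin alpha, had 390.2 with P25, against 324 with medium (1.21-fold). A second probe set of Nup50 that was nearly as bright passed 2-fold, with 450.4 with P25, against 214 with medium (2.11-fold). On the cytoplasmic side, Nup88 had 658 with P25, against 482 with medium (1.37-fold). Nup214, its FG partner, had 465 with P25, against 426 with medium (1.09-fold), and its second probe set was nearly equal on both arrays (88.6 with P25, against 88.8 with medium).

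The importin alpha genes, whose products read the classical nuclear localisation signal, spread widely. Kpna2 had a signal of 1976 with P25, against 774 with medium (2.55-fold). Kpna3 had 735 with P25, against 342 with medium (2.15-fold), and its other probe sets gave 2.65-fold and 2.89-fold. Its close relative Kpna4 had 911 with P25, against 575 with medium (1.58-fold). Kpna1 and Kpna6, which belong to another branch of the family, were nearly equal on both arrays with their chosen probe sets. Kpna1 had 299 with P25, against 275 with medium (1.09-fold), and Kpna6 had 132 with P25, against 128 with medium (1.03-fold). The other 4 probe sets of Kpna1 ran from -0.33 to 0.89 in log2 ratio, so their signs differed, and the second probe set of Kpna6 gave 1.60-fold (51.5 with P25, against 32.2 with medium). Kpna7, known from oocytes and early embryos, lay below the floor on both arrays (1.21 with P25, 1.04 with medium).

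The importin beta family also differed among its members, with a median of 1.57-fold. At least 2-fold higher were 3 of 11 genes, against 9.43% of all measured genes. A log2 ratio above 0 was found in 9 of the 11, against 51.4% of all measured genes. These counts in a small group were not tested. Ipo4 had a signal of 652 with P25, against 237 with medium (2.75-fold). Ipo5, which like Ipo4 carries histones and ribosomal proteins, had 1099.8 with P25, against 414 with medium (2.66-fold). Both had a second probe set with nearly the same ratio, of 2.88-fold for Ipo4 and 2.71-fold for Ipo5. Ipo11, a relative of these importins, had 255 with P25, against 98.2 with medium (2.60-fold), though a dim probe set with medium below the floor was only bounded, at 1.18-fold or more. Ipo7, a carrier of ribosomal proteins and histone H1, was just under the threshold with 1308 with P25, against 697 with medium (1.88-fold), and its dimmer probe sets gave 1.43-fold and 1.39-fold. Its paralog Ipo8 had the lowest ratio of all members, with 245 with P25, against 309 with medium (log2 ratio -0.34), and its other 2 probe sets were also below 0 (-0.12 and -0.28). Ipo13, which works as both an importer and an exporter, had 174 with P25, against 182 with medium (log2 ratio -0.06), a sign that turned under both median and spike-in scaling (0.09 in each). Neither Ipo8 nor Ipo13 was near 2-fold.

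Kpnb1, the importin that carries importin alpha with its cargo, gave different answers on different probe sets. Its chosen probe set had a signal of 983 with P25, against 633 with medium (1.55-fold). A second one of nearly the same brightness had 1100.4 with P25, against 421 with medium (2.61-fold). The other 2 gave 1.67-fold and 2.92-fold, so all 4 lay above 0 in log2 ratio. The transportin genes were within 2-fold on their chosen probe sets. Tnpo3, the carrier of serine/arginine-rich splicing factors, had 620.4 with P25, against 382 with medium (1.63-fold), and its other probe sets gave 1.04-fold and 1.46-fold. Tnpo1, which imports RNA-binding proteins such as HNRNPA1, had 819 with P25, against 577 with medium (1.42-fold), and 2.34-fold on another probe set. Its paralog Tnpo2 had 86.2 with P25, against 74.3 with medium (1.16-fold), and 1.85-fold and 1.45-fold on its dimmer probe sets. Ipo9, a histone carrier, had 262 with P25, against 167 with medium (1.57-fold).

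Of the 7 exportin genes 2 were at least 2-fold higher, against 9.43% of all measured genes. The log2 ratio was positive for all 7, against 51.4% of all measured genes. These counts in a small group were not tested. Cse1l, which returns importin alpha to the cytoplasm, had a signal of 1462 with P25, against 622 with medium (2.35-fold). Xpo4, an exporter of the translation factor eIF5A, had 227 with P25, against 111 with medium (2.06-fold). Its other 2 probe sets were under 2-fold, at log2 ratios of 0.71 and 0.17, so this gene stands at the threshold. Xpo1, the main exporter of proteins with a leucine-rich export signal, had 2068 with P25, against 1210.5 with medium (1.71-fold), and 1.21-fold on its other measured probe set. Xpo5, which exports precursors of microRNAs, had 264 with P25, against 154 with medium (1.71-fold). The transfer RNA exporter Xpot had 702 with P25, against 502 with medium (1.40-fold), and its other measured probe sets gave 1.90-fold and 1.89-fold. Xpo7 had 550.2 with P25, against 427 with medium (1.29-fold). Xpo6, the exporter of actin, had 569.9 with P25, against 511 with medium (1.11-fold) and was the lowest of the exportins. Cse1l and Kpna2, the recycling factor and a receptor that it recycles, were thus both above 2-fold, each from a single probe set.

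**Figure D3:**
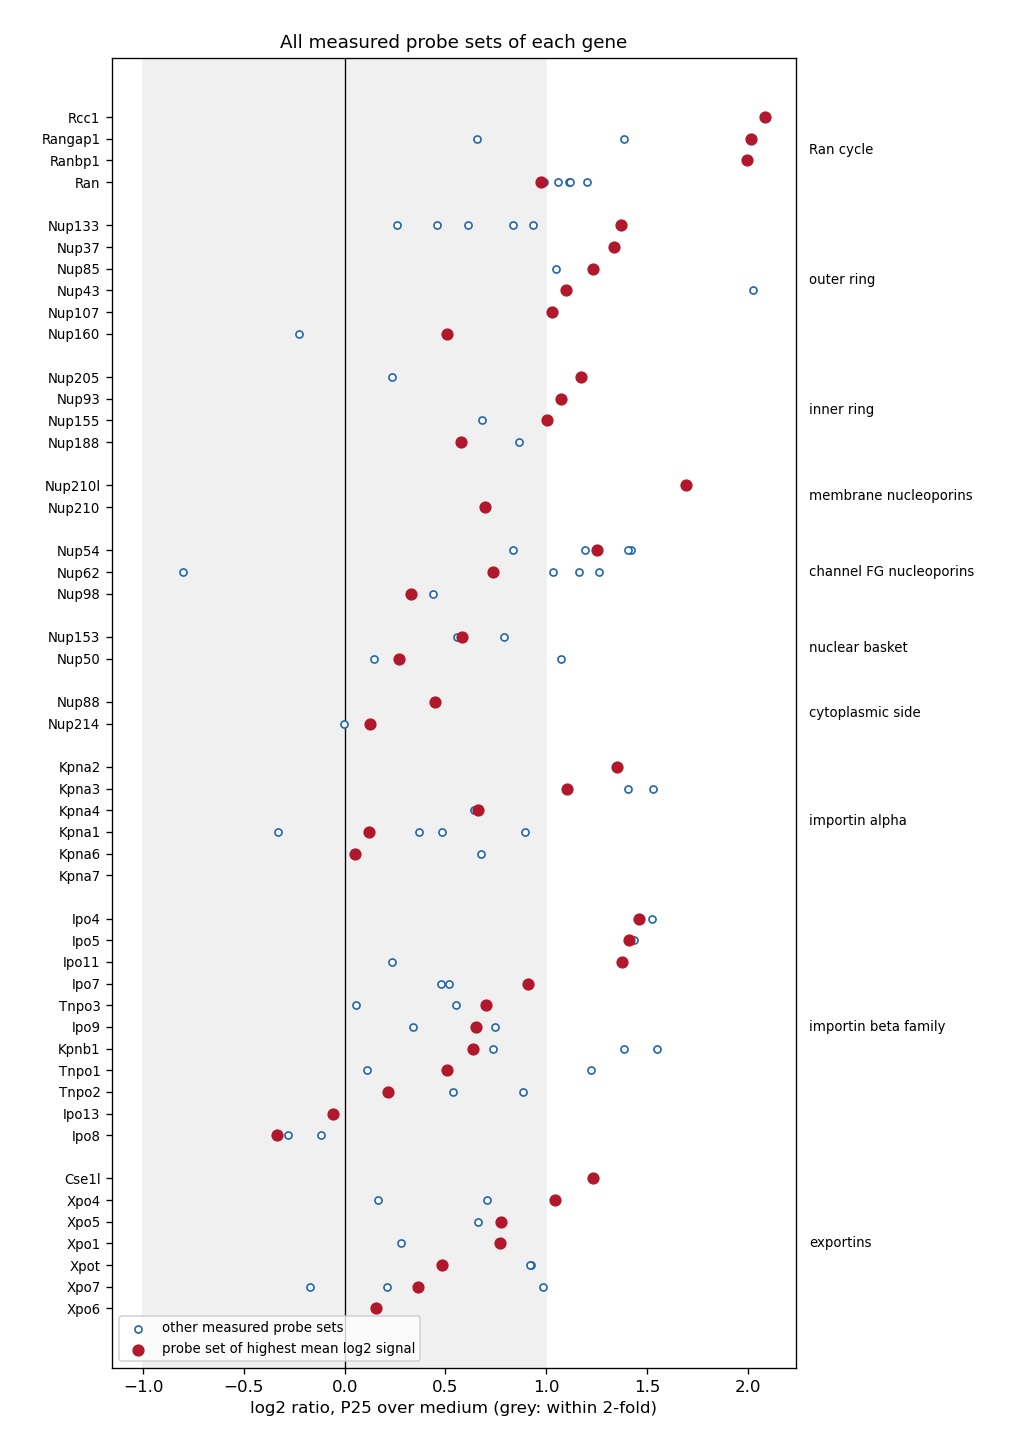
Log2 ratio of P25 over medium for all measured probe sets of each gene, with the chosen probe set filled and the others open, and the range within 2-fold in grey; a point with 1 array below the floor stands at its bound. Most open points lie to the right of 0, and the points of a gene lie farthest apart for Nup62 and Rangap1.

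Probe sets of the same gene gave the only view of technical disagreement. In 5293 genes at least 2 probe sets exceeded the floor with P25 and with medium, and the log2 ratios of the brightest pair differed with an SD of 0.58, and over the 32 members with such a pair with an SD of 0.53. Ratios near 2-fold, such as those of Nup155, Nup107 and Xpo4 above it and of Ran and Ipo7 below it, therefore cannot be placed on a side of the threshold from a single probe set. Among the 32 members the second probe set was at least 2-fold higher in 11 (34.4%), against 9.79% of all genes with a pair. Its log2 ratio was above 0 in 28 of the 32, against 47.8% of all genes with a pair. Both probe sets passed 2-fold in 6 members, and none was at least 2-fold lower on the second. For these counts the share over all genes with a pair was not computed. Counted over probe sets, 41 of 113 measured ones were at least 2-fold higher, against 9.15% of all 24042. A log2 ratio above 0 was found in 104 of the 113, and its share over all probe sets was not computed. Ran, Nup62, Nup50, Kpnb1 and Tnpo1 were the 5 members under 2-fold on the chosen probe set that passed it on another. The chosen probe sets of Ran, Nup62, Nup54 and Kpnb1 carry a suffix by which the manufacturer marks probes that may also match other transcripts, and those of Rangap1, Nup43, Nup107, Kpna1, Ipo9 and Tnpo3 carry one for probes shared by several transcripts, so signal of similar sequences cannot be separated there. Without any suffixed probe set, Rangap1 had only its dim probe set, with the bound of 2.62-fold given above.

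RefSeq promoter windows matched 38 of the 47 genes, with 45 windows of 250 bases before a start; Nup43, Nup85, Nup210l, Kpna1, Kpna3, Kpna6, Cse1l, Xpo4 and Xpo7 had no match. An E-box CACGTG was found in 7 of 45 windows (15.6%), against 6.02% of all 32851 windows and 8.02% of the windows of measured genes. E2F-type words were in 6 of 45 (13.3%), against 5.62% of all windows and 9.41% of those of measured genes. The general word CCAAT, on either strand, was in 21 of 45 (46.7%), against 33.8% and 34.9%. CCAAT can share letters with TTGGCGC, whose other strand reads GCGCCAA. The E-box stood in 2 of 17 windows of genes at least 2-fold higher, against 5 of 27 windows of genes within 2-fold. For E2F-type words the counts were 3 of 17 and 3 of 27 windows, and for CCAAT 9 of 17 and 11 of 27. These counts are small and describe letters only, without a test.

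The wider transport pathway was described with a list of 33 other genes, of which 32 were on the arrays and 31 measured. Of these 7 were at least 2-fold higher (22.6%, against 9.43% of all measured genes) and none was at least 2-fold lower (against 7.22%). The log2 ratio was positive for 25 of the 31, against 51.4% of all measured genes. The median ratio of the list was 1.45-fold (log2 ratio 0.53), against a median log2 ratio of 0.02 for all measured genes. The highest was Eny2, a subunit of an RNA export complex at the pore, with a signal of 574 with P25, against 165 with medium (3.48-fold). Rangrf, a small protein that binds Ran, had 283 with P25, against 85.1 with medium (3.33-fold). The lowest were the RNA helicase gene Ddx19b, with 80.5 with P25, against 107.7 with medium (log2 ratio -0.42), and Nxf1, the main messenger RNA export receptor, with 812 with P25, against 1009 with medium (log2 ratio -0.31). Other genes were singled out after their values were seen. The membrane nucleoporin gene Ndc1 had 137 with P25, against 45.4 with medium (3.03-fold). Alyref and Thoc1, of the complex that loads messenger RNA for export, were 2.93-fold and 2.63-fold higher. The outer ring genes that the rule does not hold were within 2-fold, with Sec13 at 1.61-fold, Seh1l at 1.46-fold and Ahctf1 at 1.35-fold. Ranbp2, the large FG nucleoporin of the cytoplasmic filaments, had 903 with P25, against 914 with medium (log2 ratio -0.02), a difference smaller than the shift that median scaling gives all genes. The weak differences on the cytoplasmic side thus extended to Ranbp2 and to Gle1 (1.07-fold), an activator of the export helicase, but not to Nupl2, whose dim probe set gave 2.18-fold (63.4 with P25, against 29.1 with medium).

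**Figure D4:**
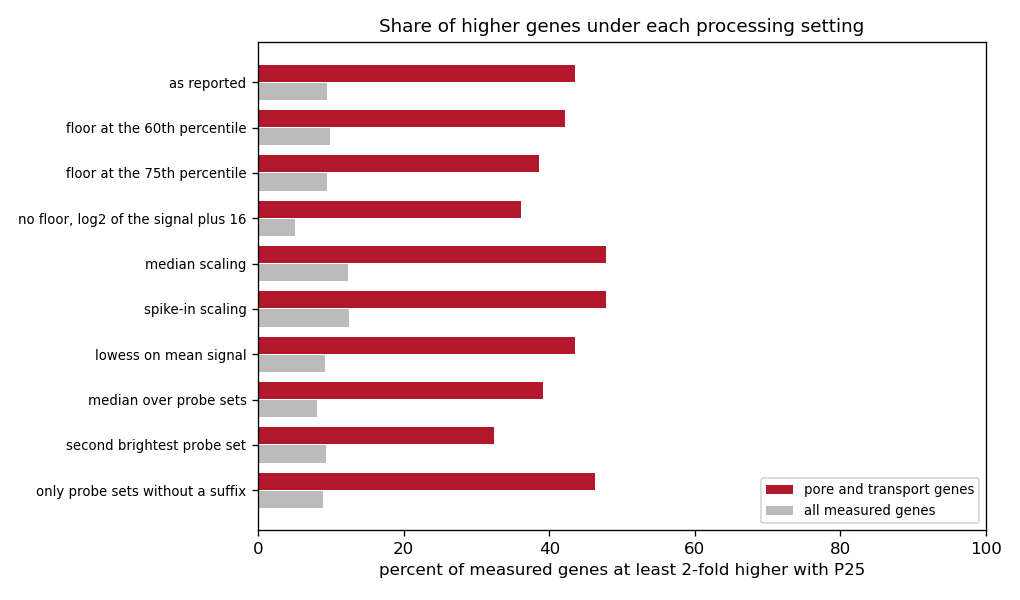
Share of measured genes at least 2-fold higher with P25, for the pore and transport genes (red) and for all measured genes (grey), under the reported processing and 9 alternatives. The red bars run from 32.4% to 47.8% and the grey bars from 5.01% to 12.5%.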

How the data were processed

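Total RNA of enriched splenic APCs was column-purified, and biotin-labelled cRNA was made from 1 µg, per the labels' protocols. The submitters' processing notes name MAS5 and GCOS, and the deposited intensities are linear. The sources used here give neither a scaling target nor detection calls. Because MAS5 takes off mismatch signal, dim probe sets have noisy ratios. Of 45101 probe sets 64 are controls, 34945 have 1 gene symbol in the platform annotation, 932 several and 9160 none. Only those with 1 were used, and levels were compared only within a probe set.

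The floor was the 40th percentile of all signals other than controls. Lower signals were raised to it, so that a gene below it on 1 array has only a bound. Above it were 60.3% of probe sets with P25 and 59.7% with medium. Groups were taken from the treatment label. Genes with a ratio of 2 or more, or of 0.5 or less, were counted. No test was possible with 1 array per condition, whose number limits the precision, and treatment and any batch cannot be told apart. By the rule for naming genes, all members are named, with both signals at least for those past 2-fold, the Ran cycle and the ends of each role group, and of the wider list the 2 highest and 2 lowest. Members and lists were chosen with earlier results of these data known. Alternatives were 2 higher floors, no floor (log2 of the signal plus 16), 3 scalings, 3 choices of probe set and RefSeq symbols. The ratios were computed with Python 3.11.15, pandas 2.3.3 and statsmodels 0.14.6. The method was also run on simulated data. Their noise was set and not taken from these arrays, so that run cannot show how reliable calls near 2-fold are.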

Additional observations from a re-analysis of the deposited data

How the results depend on the processing

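The count of 20 genes at least 2-fold higher was between 17 and 22 under all alternatives but the second brightest probe set. There it was 11 of the 34 members with a measured second probe set (32.4%, against 9.39% of all 6132 genes with one). No alternative gave a gene at least 2-fold lower. The median log2 ratio of 0.77 came to 0.9187 after median scaling and 0.9245 after scaling to the spike-ins (from 18 hybridization controls). These scalings shift all genes. Under the other alternatives the median lay between 0.68 and 0.83. RefSeq symbols gave the same values. In every alternative that gave them a value, 11 of the 20 higher genes passed 2-fold. Ipo11, Nup54, Nup107, Nup133, Nup155, Nup205, Rangap1, Rcc1 and Xpo4 did not, while 6 genes under 2-fold passed it in at least 1. Among those that passed, Cse1l, Kpna2, Nup37, Nup93, Nup210l and Ranbp1 have 1 probe set each. Another choice of probe set could therefore not bring them under 2-fold. Nup210l also had no value with the 2 higher floors. Of 394 values of single genes under 9 alternatives, 18 moved by at least the SD of 0.58 between probe sets. All but that of Rcc1 at the 75th-percentile floor came with another choice of probe set. Many of the 394 could hardly move. Median and spike-in scaling shift nearly all genes by the same amount, less than that SD, and genes with 1 probe set keep their value under the median over probe sets. The 18 of 394 is therefore no measure of how stable the values are. No gene past 2-fold changed sign. No paired analysis was possible because each condition has 1 array. Dim signals limit Nup210l most.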

Other observations

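Another 3 probe sets carry 2 gene names each, a member and another gene, and entered none of the comparisons above, since their signal cannot be assigned. The probe set of Xpo4 and Lats2 had a signal of 423 with P25, against 242 with medium (1.74-fold). The probe set of Ipo4 and Tm9sf1 had 283 with P25, against 223 with medium (1.27-fold). The probe set shared by Kpna4 and a gene without a common name had 229.6 with P25, against 235 with medium (log2 ratio -0.03). None of them passed 2-fold.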
